A study of Homo sapiens with 4 samples.

Results

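ELF5 peaks were examined in 9 windows of hg19, each laid around a nuclear gene of mitochondrial respiration: COX4I1, COX5B, SDHB, SDHD, CYC1, ATP5F1B (older symbol ATP5B), ATP5F1A (older symbol ATP5A1), TFAM and NRF1. A peak belonged to a window if its summit lay inside it, and the rule used no peak value. The windows span 910 kb in all and held 86 of the 115384 peaks in the list. ELF5 was immunoprecipitated from T47D, an established line of human breast epithelium of the luminal A kind, untreated and kept in RPMI with serum and insulin. The series held 3 ELF5 ChIP samples and 1 input sample from the same line. The values came as 1 peak list without a column per sample, so no spread between replicates can be given. Each fold carries only the counting error of its pileup, the number of fragments stacked at the peak.

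Oxidative phosphorylation passes electrons through a chain of protein complexes in the inner mitochondrial membrane and uses the resulting proton gradient to make ATP. Most subunits are encoded in the nucleus, as are the factors that copy and transcribe mitochondrial DNA. NRF1 is a transcription factor that binds the promoters of many such nuclear genes, and GABP, an ETS factor, is known to do so as well. ELF5 is an ETS factor of luminal progenitors and milk-producing alveolar cells, and all ETS factors recognise DNA around a GGAA core.

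The RefSeq promoters of the members are shown because they hold the ETS core and, in some genes, the letters that NRF1 recognises. Each entry runs from 250 bases before to 50 after the start of transcription, on GRCh38.p14, and 7 entries matched 6 of the 9 members. The sequences are read 5′ to 3′ along the gene, with every GGAA, or TTCC on the other strand, in capitals. No base of hg19 was read, so these promoters are not placed against the peaks.
COX4I1, chr16:85799445-85799744, plus strand: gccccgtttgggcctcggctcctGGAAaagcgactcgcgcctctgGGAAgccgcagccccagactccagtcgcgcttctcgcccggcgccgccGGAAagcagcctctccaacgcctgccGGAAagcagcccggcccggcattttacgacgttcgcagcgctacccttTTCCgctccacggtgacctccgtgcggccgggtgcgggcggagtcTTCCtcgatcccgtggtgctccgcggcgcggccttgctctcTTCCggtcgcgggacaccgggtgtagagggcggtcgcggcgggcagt
COX5B, chr2:97645812-97646111, plus strand: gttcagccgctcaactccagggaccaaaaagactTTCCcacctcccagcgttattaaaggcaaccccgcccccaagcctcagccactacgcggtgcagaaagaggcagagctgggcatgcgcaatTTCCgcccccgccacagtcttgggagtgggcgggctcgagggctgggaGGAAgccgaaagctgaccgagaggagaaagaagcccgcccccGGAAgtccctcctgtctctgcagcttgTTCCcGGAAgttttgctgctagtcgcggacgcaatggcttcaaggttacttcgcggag
SDHB, chr1:17053983-17054282, minus strand: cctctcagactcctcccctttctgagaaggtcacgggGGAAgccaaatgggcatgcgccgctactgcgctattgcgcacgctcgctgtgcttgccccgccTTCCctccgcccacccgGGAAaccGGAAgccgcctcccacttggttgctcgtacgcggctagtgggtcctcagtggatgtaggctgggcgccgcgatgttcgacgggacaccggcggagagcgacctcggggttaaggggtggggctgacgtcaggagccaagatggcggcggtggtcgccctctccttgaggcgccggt
SDHD, chr11:112086623-112086922, plus strand: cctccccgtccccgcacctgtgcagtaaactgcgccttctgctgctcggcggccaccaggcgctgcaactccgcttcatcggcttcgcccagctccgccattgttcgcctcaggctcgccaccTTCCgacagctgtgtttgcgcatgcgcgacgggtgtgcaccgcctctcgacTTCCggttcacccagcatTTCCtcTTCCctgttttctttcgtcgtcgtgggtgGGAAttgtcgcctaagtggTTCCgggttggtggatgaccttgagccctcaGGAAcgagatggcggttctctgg
ATP5F1A, first entry, chr18:46104178-46104477, minus strand: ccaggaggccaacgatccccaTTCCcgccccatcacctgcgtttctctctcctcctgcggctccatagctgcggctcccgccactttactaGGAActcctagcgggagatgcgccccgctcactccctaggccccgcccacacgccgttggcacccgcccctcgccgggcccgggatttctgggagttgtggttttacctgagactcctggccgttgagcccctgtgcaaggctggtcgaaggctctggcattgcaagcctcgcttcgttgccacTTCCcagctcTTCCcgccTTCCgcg
ATP5F1A, second entry, chr18:46098247-46098546, minus strand: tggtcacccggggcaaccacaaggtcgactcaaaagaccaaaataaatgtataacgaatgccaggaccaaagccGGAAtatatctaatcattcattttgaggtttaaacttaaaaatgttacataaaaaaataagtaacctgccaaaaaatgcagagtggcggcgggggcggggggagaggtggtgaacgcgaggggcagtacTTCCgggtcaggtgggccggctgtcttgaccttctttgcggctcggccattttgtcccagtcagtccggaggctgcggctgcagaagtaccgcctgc
TFAM, chr10:58385160-58385459, plus strand: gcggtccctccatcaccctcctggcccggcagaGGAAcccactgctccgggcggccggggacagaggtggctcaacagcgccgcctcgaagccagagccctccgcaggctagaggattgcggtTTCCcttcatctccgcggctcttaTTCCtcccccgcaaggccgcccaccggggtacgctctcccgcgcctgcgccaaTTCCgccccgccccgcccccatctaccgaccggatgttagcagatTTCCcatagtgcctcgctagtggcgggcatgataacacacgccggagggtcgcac

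All 7 entries held the GGAA core on one strand or the other, as did 95.5% of the 35116 promoters in the RefSeq table. COX4I1 and SDHD had 7 matches each, COX5B had 6, TFAM and the first ATP5F1A entry 5 each, SDHB 4 and the second ATP5F1A entry 2. The median over the table was 3. The longer ETS form CCGGAA, which contains the core, was added to the search only after the promoters had been seen. It was in 5 of the 7 entries and in 17.2% of the table. COX4I1 held 3 copies, and the 2 entries without it were TFAM and the first of ATP5F1A.

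The full form CCGGAAGT was found in the COX5B, SDHD and second ATP5F1A promoters, against 4.14% of the table. COX5B held a pair of copies, whose first bases lay at -37 and -5 counted from the start site, and 0.382% of the table had 2 or more. For NRF1, the palindrome CGCATGCG was in the SDHD promoter, at -109, and in 2.02% of the table. The overlapping form GCGCATGC, also added after the promoters had been seen, was in COX5B, SDHB and SDHD, and in 3.05% of the table. All forms were searched on both strands. The entries were 51.3% to 71.0% G or C, against a median of 58.7% in the table, and the part of base composition in these matches was not tested. A match describes letters only.

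Every window held at least 1 strong peak, here a peak among the highest 10% of the list by the authors' fold over local background. Such peaks began at a fold of 11.99. They made up 10.0% of the list, and 14 of the 86 peaks in the windows, 16.3% (exact binomial 95% interval 9.20% to 25.8%). That interval treats the peaks of a window as independent, which they are not, and it includes the share in the list. Of the 86 peaks, 80 had the authors' q under 0.05, 93.0%, and in the list 87.5% did. When chromosomes 1 to 22 and X were divided into consecutive stretches of 85 kb, the median window length, 21.3% held a strong peak. Within the 9 chromosome bands of the windows the share was 35.6%. Stretches of 220 kb, the length of the NRF1 window, held one in 38.0% of cases. Assembly gaps and gene-free stretches are part of these shares, whereas each window was laid around a gene.

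The median peak in the windows was much like the median peak elsewhere. The median fold was 3.67 in the windows and 3.66 in the rest of the list. Median pileups were 22 and 16 fragments, over median backgrounds of 4.0 in the windows and 3.11 in the rest. The strong peaks of the windows had a median fold of 16.6, against 18.8 for strong peaks elsewhere, with median pileups of 126.5 and 92 and backgrounds of 5.2 and 3.1. More fragments therefore stood behind a lower fold. The other 72 peaks ran from a fold of 2.20 to 11.74, and 10 of them had a summit within 2000 bp of a strong one.

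**Figure D1:**
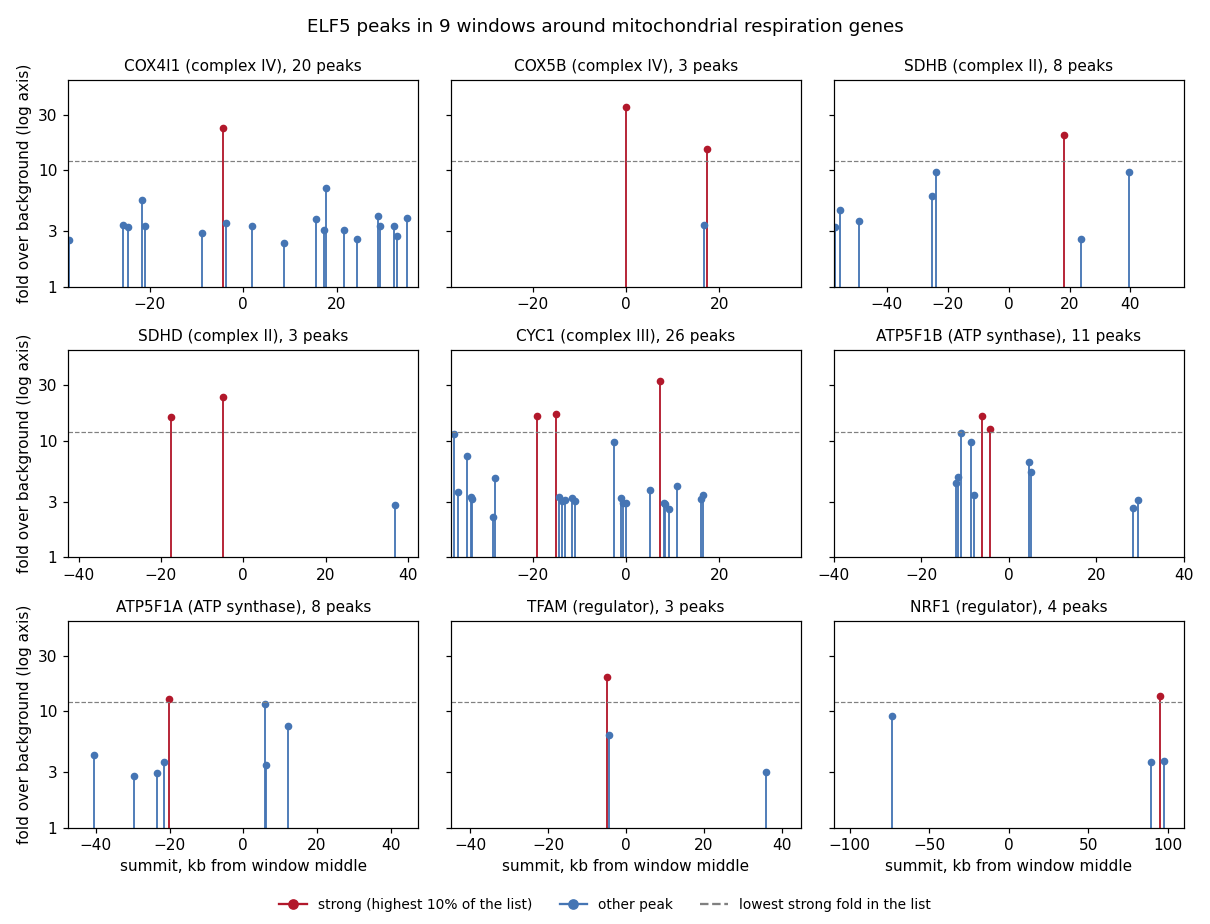
Each panel shows 1 window, with the distance of each ELF5 summit from the window's middle in kb on the horizontal axis and the authors' fold over background on a log axis; red marks strong peaks, blue the others, and the dashed line the lowest strong fold of the list, 11.99. All 9 panels hold a red peak, while the number of peaks per panel runs from 3 to 26.

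The strongest of the 86 peaks lay in the window of COX5B, a complex IV gene. Complex IV, cytochrome c oxidase, hands electrons to oxygen, and COX5B and COX4I1 encode nuclear subunits of it. In the COX5B window, chromosome 2 from 98225001 to 98300000, the leading peak covered 98261849 to 98262900 with its summit at 98262414. Its fold was 35.3 (95% counting interval 30.3 to 40.8), from a pileup of 179 over a background of 3.65. This was rank 845 of the list by fold, within the top 0.732%. A second strong peak, at 98279706 to 98281048, had a fold of 15.4 (11.5 to 20.2), and its only close neighbour was a weak peak of fold 3.37. No other peak was found in this window.

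The COX4I1 window looked different: 1 strong peak stood among 19 weaker ones. The strong peak, on chromosome 16 from 85832481 to 85833585, had a fold of 22.98 (19.9 to 26.4), from a pileup of 201 over a background of 7. The next had folds of 7.03 (5.30 to 9.15) and 5.53 (4.46 to 6.78), below the strong peak by more than their intervals. The remaining 17 ran from 2.36 to 4.04, and 2 of the 20 peaks had a q of 0.05 or more. Backgrounds were high here, up to 14 fragments, and a high background lowers the fold for a given pileup. The protein-coding genes next to COX4I1 in RefSeq order are EMC8 and IRF8, and which gene a peak belongs to was not analysed here.

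Both complex II windows led with a fold above 20, as did those of COX5B, COX4I1 and CYC1. Complex II, succinate dehydrogenase, links the citric acid cycle to the chain: SDHB carries its iron-sulfur clusters and SDHD is one of its membrane anchors. The leading peak of the SDHD window, on chromosome 11 from 111957122 to 111957751, had a fold of 23.9 (20.8 to 27.3) and a pileup of 209, the highest of all 86 peaks. A second strong peak at 111944652 to 111945549 had a fold of 16.0 (13.3 to 19.1), and the intervals did not overlap. The third and last peak in that window had a fold of 2.80. TIMM8B, a gene for a mitochondrial import chaperone, is the protein-coding gene next to SDHD on one side.

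In the SDHB window, chromosome 1 from 17305001 to 17420000, 1 of 8 peaks was strong. It covered 17380307 to 17380941 with a fold of 20.3 (16.3 to 24.9) and a pileup of 88 over a background of 3. The next peaks, at 17401983 to 17402237 and at 17337882 to 17338720, had nearly the same fold, 9.74 and 9.73. Their intervals, 6.64 to 13.8 and 6.72 to 13.7, lay below that of the strong peak. The intervals of the SDHB and SDHD leaders overlapped, so the leading peaks of the subunit pair were not resolved from each other.

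**Figure D2:**
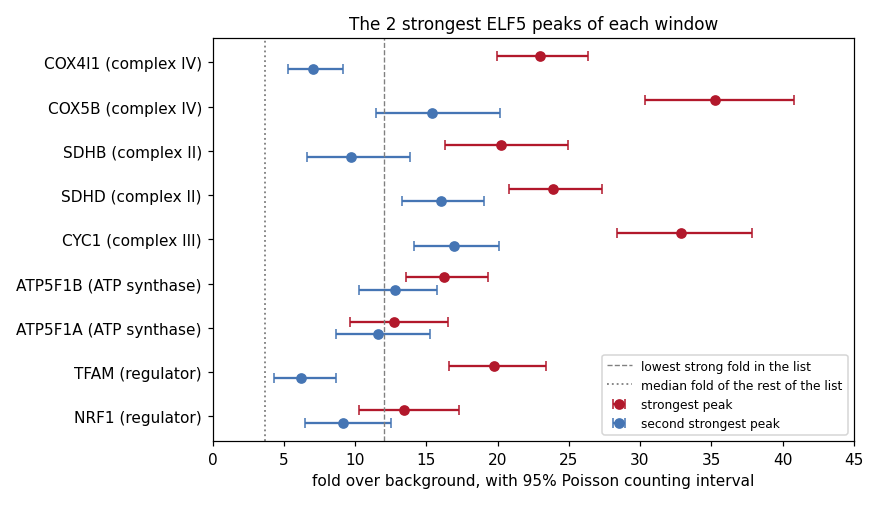
Folds over background of the strongest (red) and second strongest (blue) ELF5 peak in each window, with 95% Poisson counting intervals of the pileup; the dashed line is the lowest strong fold of the list, 11.99, and the dotted line the median fold of the rest of the list, 3.66. In 6 of the 9 windows the intervals of the 2 peaks do not overlap; they overlap for ATP5F1B, ATP5F1A and NRF1.

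The richest window was that of CYC1, which encodes cytochrome c1, the subunit of complex III that passes electrons on to cytochrome c. It held 26 peaks on chromosome 8 between 145115001 and 145190000, of which 3 were strong and 24 had a q under 0.05. The leading peak, 145158320 to 145160141, had a fold of 32.9 (28.4 to 37.8) and a pileup of 191 over a background of 4.32. It had the smallest p of all 86 peaks, with an authors' −log10 p of 207.1. The other strong peaks, at 145137065 to 145137909 and 145133025 to 145133839, had folds of 16.9 (14.1 to 20.1) and 16.3 (13.9 to 19.0), which were not resolved from each other. A peak just below the strong range, at a fold of 11.4, lay at the edge of the window. The peak nearest the middle among those with a fold above 5 covered 145149416 to 145151153 and had a fold of 9.84 (7.46 to 12.8). GPAA1 and SHARPIN are the protein-coding neighbours of CYC1. Peaks covered 14.8% of the window's bases, the highest share of the 9.

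The ATP synthase windows had the lowest leading folds among the enzyme genes, though the intervals of both leaders overlapped that of SDHB. ATP synthase makes ATP from the proton gradient, and ATP5F1B and ATP5F1A encode the beta and alpha subunits of its catalytic head. The ATP5F1B window held 11 peaks on chromosome 12, and 9 of them lay between 57022847 and 57040238. The leading peak spanned 57027985 to 57030356, 2372 bp, with a fold of 16.3 (13.5 to 19.4). A neighbour at 57030512 to 57031079 had a fold of 12.8 (10.2 to 15.8) and was also strong. The third, at a fold of 11.74 (9.31 to 14.6), was the highest of the windows' peaks outside the strong set. These 3 intervals overlapped, so no single peak stood out.

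The ATP5F1A window held 8 peaks on chromosome 18, with a similar lack of a clear leader. The only strong one, 43651471 to 43652451, had a fold of 12.8 (9.67 to 16.5), the lowest of the strong peaks in the windows. It was followed by 43677688 to 43678410 at 11.6 (8.69 to 15.2) and 43684156 to 43684889 at 7.45 (5.53 to 9.82). The intervals of the first and second overlapped almost wholly. Whether the ATP5F1A window counts as holding a strong peak thus rests on a value close to the limit. Which gene that peak belongs to was not analysed. BAZ2A and PTGES3 flank ATP5F1B, and PSTPIP2 and HAUS1 flank ATP5F1A, in RefSeq order.

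The windows of the regulators TFAM and NRF1 held few peaks, as did those of the enzyme genes COX5B and SDHD, with 3 each. TFAM packages and transcribes mitochondrial DNA, and NRF1 activates TFAM and many respiratory genes. Of 3 peaks in the TFAM window, the leading one, on chromosome 10 from 60144679 to 60145396, had a fold of 19.8 (16.6 to 23.4) and a pileup of 135 over a background of 5.27. A shoulder 531 bp away, summit to summit, had a fold of 6.20 (4.33 to 8.63). The third peak had a fold of 2.98. The strongest peak thus held 75.0% of the window's summed pileup. The share was 74.9% in the COX5B window and 60.6% in the SDHD window, which also held 3 peaks each. In the CYC1 window it was 18.9%, but there 26 peaks shared the sum, and the leading pileup was larger, at 191. Such a share depends on the number of listed peaks.

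The NRF1 window, 220 kb on chromosome 7, held only 4 peaks. The strong one, 129418900 to 129421215, was 2316 bp wide with a fold of 13.4 (10.3 to 17.3), and its summit lay 94.9 kb from the window's middle, near one end. On the other side of the middle, a peak at 129251274 to 129252272 had a fold of 9.12 (6.47 to 12.5) and no neighbour within 90767 bp. The intervals of both overlapped. Between 129252272 and 129414348, which takes in the middle of the window, no peak was listed. The smallest pileups among the listed peaks of the windows were 9 to 11 fragments. The thresholds of the list are not known, so a stretch without a listed peak may still hold weaker binding.

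Across windows, the leading peaks fell into an order that was only partly resolved. This order is one of windows, not of genes, since the distance of a leading peak to the member gene was not analysed. By fold it ran COX5B, CYC1, SDHD, COX4I1, SDHB, TFAM, ATP5F1B, NRF1 and ATP5F1A. The intervals of COX5B and CYC1 overlapped each other but no other leading peak. Of the 36 pairs of leading peaks, 21 had intervals that did not overlap. Each neighbouring pair below CYC1 in this order overlapped. The same peak led each of the 9 windows when peaks were ranked by p. The leaders of COX5B and CYC1, 2 of the 86 peaks, were within the top 1% by fold, a limit that 1% of the list meets by definition.

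**Figure D3:**
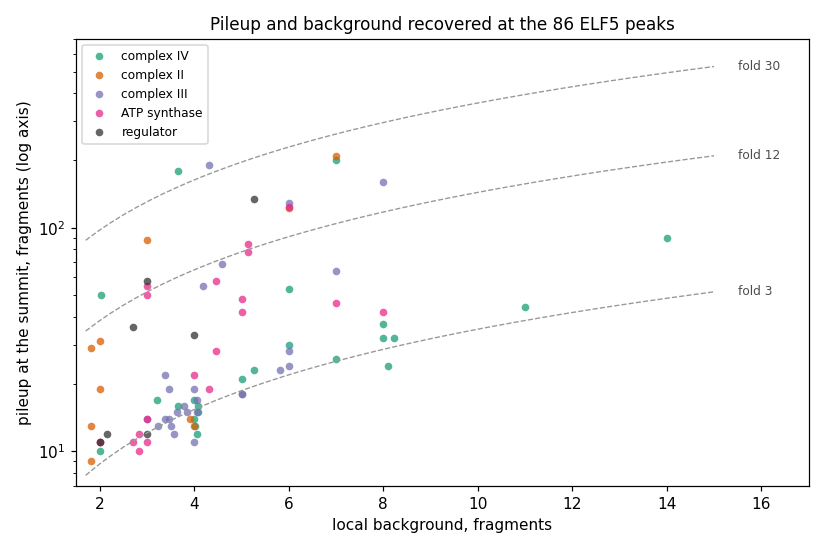
Fragment pileup at the summit (log axis) against the local background for the 86 peaks, both in fragments recovered from the authors' fold and p, coloured by the members' role; dashed lines mark folds of 3, 12 and 30. The COX5B peak with a pileup of 179 and the CYC1 peak with 191 lie above the line of fold 30, whereas the SDHD peak with 209 and the COX4I1 peak with 201 lie below it, over a background of 7.

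Windows with many peaks lay in bands with many peaks: densities ran from 18.2 to 347 peaks per Mb over the windows, but stayed within 0.642 to 2.32 times those of their bands. The CYC1 window had 347 peaks per Mb, against 276 in its band, 8q24.3. For COX4I1 the window had 267 per Mb and the band, 16q24.1, had 273. At the other end, the NRF1 window had 18.2 per Mb and its band, 7q32.2, 28.3. The window was denser than its band for 4 members, CYC1, ATP5F1B, ATP5F1A and TFAM, and the median ratio was 0.983. With only peaks of q under 0.05, 6 of the 9 windows were denser than their bands and the median ratio was 1.04, so its side of 1 depended on that limit. These bands include the windows and carry no replicate error.

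Strong peaks were denser in the window than in its band for 8 of the 9 members, the exception being NRF1, with a median ratio of 1.90. The ratio was highest for TFAM, whose window had 11.1 strong peaks per Mb, against 0.843 in 10q21.1, a band of the darkest Giemsa class. That value rests on 1 strong peak in the window and 7 in the band. The COX5B window had 26.7 strong peaks per Mb against 5.42 in 2q11.2, and the SDHD window had 23.5 against 5.24 in 11q23.1, each from 2 peaks. For 5 of the 8 members, COX4I1, SDHB, ATP5F1B, ATP5F1A and TFAM, the window exceeded the number of strong peaks at its band's density by less than 1 peak. The excess was 1.91 peaks for CYC1, 1.59 for COX5B and 1.55 for SDHD. Pooled, the windows held 15.4 strong peaks per Mb, against 3.80 over chromosomes 1 to 22 and X. Peaks of any strength were also denser when pooled, at 94.5 per Mb in the windows against 38.0 over the same chromosomes. The CYC1 and COX4I1 windows, at 347 and 267 per Mb, weigh heavily in that pooled value. Against its own chromosome, the window was denser for 6 of the 9 members. The exceptions were SDHD, TFAM and NRF1, at 35.3, 33.3 and 18.2 peaks per Mb. Bands differ in gene content, the windows were laid around genes, and the part of gene density in these ratios was not tested.

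**Figure D4:**
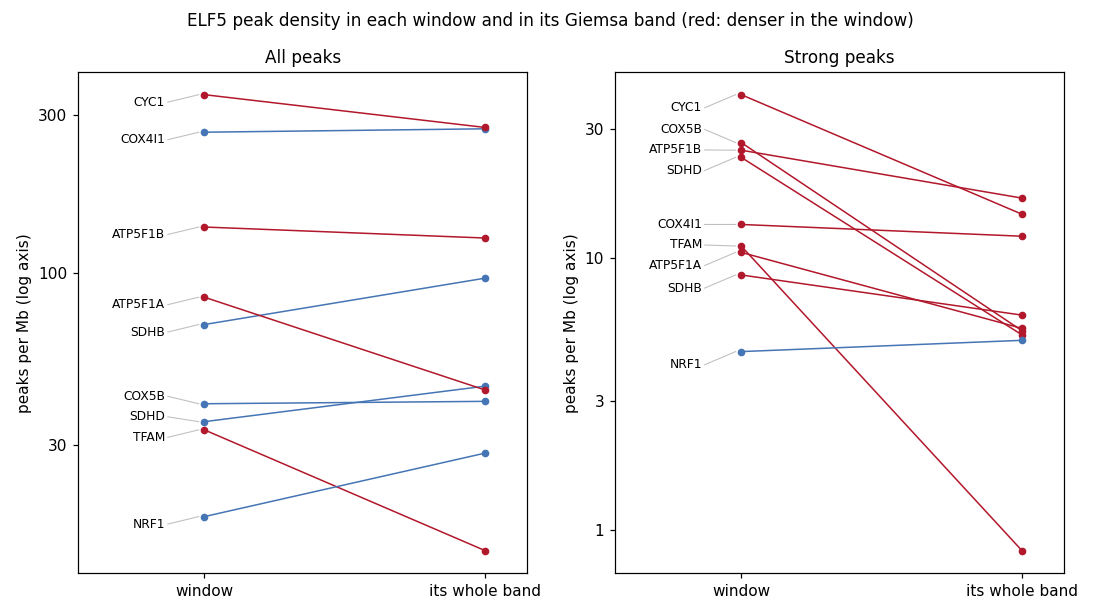
Peaks per Mb (log axis) in each window and in the whole Giemsa band that contains it, for all peaks on the left and strong peaks on the right; red lines join values that are higher in the window, blue lines those that are lower. For all peaks 4 of 9 lines are red, and for strong peaks 8 of 9, with TFAM the steepest.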

How the data were processed

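Per the labels, chromatin of T47D nuclei was sheared by sonication and ELF5 was pulled down in 3 replicates, beside 1 input; separate cultures are not stated. The build of the authors' peak list is hg19, per the file headers and per the submitters' processing notes. The peak caller and aligner, the thresholds, the use of input and any pooling were not given in the sources used. The track name mentions IDR, a measure of replicate concordance, but the list has no such column. The name also holds 1-3, and whether the list rests on replicates 1 to 3 or on 1 and 3 is not known. The deposited fold (a ratio to local background), −log10 p, −log10 q and score, and the summit offset, were used as given. Pileup and background were recovered from fold and p, with a factor of 0.910 on whole pileups, a pseudocount and a Poisson tail, to within 0.001 of −log10 p for all 115384 peaks. A second pileup was possible at 95 peaks. On 19566 simulated peaks 99.3% of pileups were recovered. Those peaks were drawn from the same formula, with a different factor and other backgrounds than the data, so this checks the calculation only. Reads per sample are unknown here. Depth therefore enters only as pileup, and intervals are exact Poisson 95% intervals with the background fixed, which cover counting error only.

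Windows ran from their stated start to just before their end, and positions are counted from 1. The members, windows and lists were chosen with earlier results of these data known. Named peaks were each window's strongest and all strong ones (up to 4), with others by range; peaks named beyond these were chosen after their values were seen. No test was run, since 1 list has no second group. Bands came from circlize 0.4.16 in R 4.3.3; the ends of 24 chromosomes matched hg19 lengths in GenomeInfoDb 1.38.1. All 9 members matched the RefSeq gene table by symbol, on the chromosome of their window, and its order gave neighbours. No hg19 sequence or annotation was used, so distances to genes and other genes of the pathway were not analysed here. The forms CCGGAA and GCGCATGC were added after the promoters had been seen. Scripts ran under Python 3.11.15 with pandas 2.3.3, numpy 2.4.6, matplotlib 3.10.9 and scipy 1.17.1.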

Additional observations from a re-analysis of the deposited data

How the results depend on the processing

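The 86 peaks in the windows became 45 among the highest 50% of folds and 52 with peaks within 1 kb joined; the count stayed within 1.5 times with q under 0.05, another overlap rule, or windows 10 kb shorter or longer at each end. With the strongest 5% by fold, 6 peaks in 6 windows were strong (6.98% of peaks, 5.01% of the list). The windows of ATP5F1B, ATP5F1A and NRF1 had none. With the strongest 20%, 25 were (29.1% of peaks), and 23092 of the 115384 peaks in the list. Among peaks with q under 0.05, the strongest 10% by fold made up 17.5% in the windows and 11.4% in the list. With the strongest 10% by p, 16 were strong (18.6%), and 11541 in the list. Leaving out each window in turn gave shares from 14.5% to 19.7%. With q under 0.05, 6 windows were denser than their band, at a median ratio of 1.04. Strong peaks alone were denser than the band in 8 windows, at a median ratio of 1.90. Against the chromosome, 6 windows were denser and the median ratio was 1.81 for all peaks. The leader of each window was the same by fold, by p and by pileup minus background. Of 83 values for single windows or stretches, 19 moved by over 1.5 times. Replicates could not be left out in turn. No paired analysis was possible because samples have no columns of their own. Peaks with the lowest pileups could not be ordered: at 9 fragments, an SDHB peak had a fold of 3.27 with an interval of 1.69 to 5.88.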

Other observations

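Peaks in different windows can carry identical values, because pileups are whole numbers. A weak peak each in the SDHB, ATP5F1A and NRF1 windows had a pileup of 11 over a background of 2 and a fold of 3.67, as did 820 peaks of the list with the same p. A pair of neighbouring peaks in the CYC1 window, with summits at 145151775 and 145152571, had a pileup of 18 over 5 each and a fold of 2.90, shared with 401 peaks in all. The order of such peaks carries no information.

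Of the 86 peaks, 2 were at least 2000 bp wide, the leaders of the ATP5F1B and NRF1 windows, with folds of 16.3 and 13.4. In the whole list, 517 of 115384 peaks were that wide. The leader of the SDHD window, with the highest pileup, was 630 bp wide, and that of SDHB 635 bp. The smallest width in the list, 135 bp, was shared by 6 of the 86 peaks of the windows and 10687 of the 115298 in the rest.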
